A study of Mus musculus with 6 samples.

Results

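The nuclear-encoded subunits of the mitochondrial respiratory chain and of ATP synthase were followed at the RNA level in mouse embryonic fibroblasts with and without Stc1, the gene of the secreted glycoprotein stanniocalcin-1. Members were chosen by a rule on names, which uses no values but was set with earlier results of these data known. A locus was taken when one of its gene names began with Nduf and a subunit letter and number, or with Sdha to Sdhd. Names that began with Uqcr, with Cox4 to Cox8 or with Atp5 were taken too. The rule took 88 of the 39495 loci in the deposited files, of which 35 belonged to complex I, 6 to complex II, 9 to complex III, 19 to complex IV and 19 to complex V. It also takes in a few loci that are not structural subunits: the complex II assembly factors Sdhaf1 and Sdhaf2, the genes Atp5s and Atp5sl, and the pseudogene Atp5l-ps1.

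The respiratory chain is a series of protein complexes in the inner mitochondrial membrane. Complexes I and II take electrons from NADH and succinate, complex III passes them to cytochrome c, complex IV gives them to oxygen, and complex V uses the proton gradient built on the way to make ATP. Most subunits are encoded in the nucleus and imported, while a few core subunits are encoded in mitochondrial DNA, and several nuclear subunits exist as alternative isoforms that are best known from muscle, testis, lung or cells short of oxygen.

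The cells were embryonic fibroblasts of C57BL/6 background, either Stc1+/+ (wild type, 3 libraries) or Stc1-/- (knockout, 3 libraries), grown in the same serum-containing medium with no treatment named in the labels. Polyadenylated RNA was sequenced with a stranded kit. Nothing in the labels tells if libraries of the same genotype stem from different embryos or dishes, so the p-values here reflect a spread that may be technical. The labels name no embryo age and no passage number.

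Depth ranged from 21766332 estimated fragments in named loci (knockout replicate 1) to 71107130 (wild-type replicate 1). Fragments of Stc1 itself numbered 2245, 291 and 368 in wild type and 6, 0 and 0 in knockout, which matches the labels. Fibroblast markers were abundant in every library, with summed levels of 5874 to 34350 CPM (fragment counts scaled to a common library size) over 10 genes. Some libraries also held macrophage RNA. Over the 16 macrophage markers that had a locus, of 18 listed, the summed CPM was 404.5, 1664 and 13170 in the wild-type libraries, in replicate order, and 1752, 510.7 and 556.2 in the knockout libraries, and none of the 16 was at 0 in any library. The highest sum was therefore in wild-type replicate 3. The low sums are not macrophage RNA alone. The Cd68 locus also holds Eif4a1 and Senp3 and gave 199.5 CPM in wild-type replicate 1, and another of the 16 loci joins a further gene. C1qb, a locus with no other gene name, had 0.807, 177 and 2076 CPM in wild type and 11.1, 1.48 and 1.93 CPM in knockout. Loci with a single gene name ranked wild-type replicate 2 and knockout replicate 1 differently. Emr1 had 74.7 CPM in the former and 168 in the latter, and Ctss 141 and 440. Itgam, Ptprc, Tyrobp and Cd14 were also higher in knockout replicate 1. C1qa, C1qc, Mrc1, Csf1r, Fcgr1, Aif1 and Cx3cr1 were higher in wild-type replicate 2, like C1qb. As these are bulk samples, fewer cells of a type and less RNA per cell cannot be told apart.

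Of the 88 loci, 81 passed the filter on low counts and were tested: all 35 of complex I, all 6 of complex II, all 9 of complex III, 15 of complex IV and 16 of complex V. The 7 that did not pass were Cox6a2, Cox7b2, Cox8b, Cox8c, Atp5g2, Atp5l2 and Atp5l-ps1. The 2 loci on the mitochondrial chromosome were marked in all 6 libraries as too deep to be quantified, so the subunits encoded in mitochondrial DNA were not analysed here. Cox4i1, the common isoform of the Cox4 subunit, was not analysed here either. In 7 member loci the files join the subunit with another gene (among them snoZ39 with Cox7c, Donson with Atp5o, Kank3 with Ndufa7, Sec31b and Gm20538 with Ndufb8, Zkscan14 with Atp5j2, Adck2 with Ndufb2), and the values of those loci cover all the genes named.

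The subunit genes were expressed strongly and at similar total levels in both genotypes, and no member passed the test of a difference. Summed over members, the CPM was 7089, 6323 and 7820 for the wild-type libraries and 6965, 7059 and 7547 for the knockout libraries, each in replicate order. The mean was 7077 ± 748.6 CPM in wild type and 7190 ± 312.4 CPM in knockout (SD, n = 3 each), and the ranges overlapped. In edgeR's quasi-likelihood test, 0 of 81 members had an adjusted p under 0.05, where the share over all 15673 tested loci was 0% (lowest adjusted p over all loci 0.194). Stc1 itself had a log2 fold change of -7.72 and an edgeR adjusted p of 0.763, so this test did not call the targeted gene either. A lack of calls here therefore does not show equal levels. At an unadjusted p under 0.05, again 0 members passed in each direction, against 1.6% of all loci with the knockout higher and 2.27% with the knockout lower. DESeq2 called 0 members, against 0.32% of the loci it tested. The smallest member p in edgeR was 0.119 (adjusted 0.763), for Cox7b. Knockout and wild-type libraries did not overlap in 2 members with the knockout higher, Cox7b and Ndufa1, or 2 of 81 where the share over all loci was 5.18%. They did not overlap in 0 tested members with the knockout lower, where the share over all loci was 5.44%.

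The sizes of the differences were small. The median log2 fold change (knockout over wild type) stood at 0.05 for the 81 tested members, with 54 above 0 and 27 below, beside -0.05 over all tested loci, of which 44.4% were above 0. For 72 of the 81 members (88.9%) the 95% interval of the log2 fold change lay between -1 and 1. The same held for 48.0% of all tested loci. The direction of the member median rested on wild-type replicate 2. Leaving it out gave a median of -0.04 with 31 of 81 members above 0. Without the 3 libraries with the highest macrophage sums, which leaves a lone wild-type library assumed to vary like the others, the median was 0.06 and 0 members were called.

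**Figure D1:**
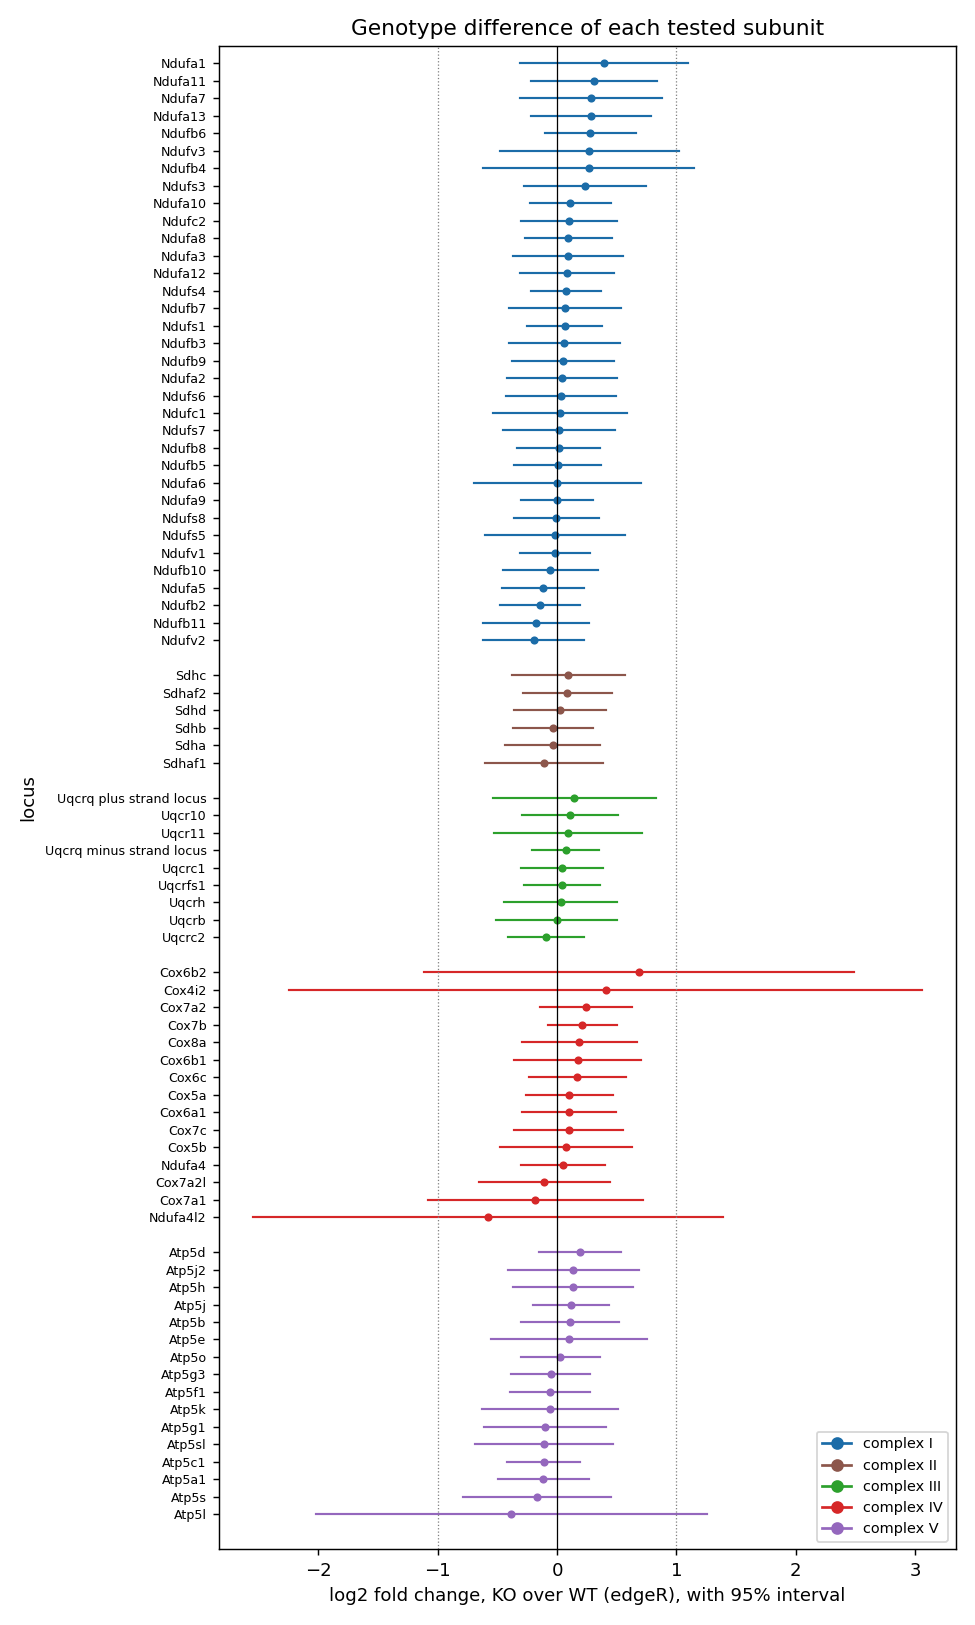
The x axis shows edgeR's log2 fold change, knockout relative to wild type, for each tested locus reported here, with its 95% interval as a line. Loci are grouped by complex and ordered by fold change, and dotted lines mark -1 and 1. Every interval drawn crosses 0, and the widest belong to Cox4i2, Ndufa4l2, Cox6b2 and Atp5l.

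Complex I, the NADH dehydrogenase, had a median log2 fold change of 0.05 over its 35 tested loci, with 25 above 0 and 10 below. Among the core subunits of its peripheral arm, Ndufv1, which holds the flavin that accepts electrons from NADH, was the steadiest. Its FPKM (fragments scaled by transcript length and by library size) was 42.4, 44.5 and 40.2 in wild-type replicates 1 to 3 and 40.6, 44.4 and 45.4 in knockout replicates 1 to 3. Ndufs1, which carries iron-sulfur clusters of the same arm, had an FPKM of 32.9, 34.5 and 33.5 in wild type and 33.3, 34.3 and 40.7 in knockout. For both genes the genotypes overlapped, and the log2 fold changes were -0.02 (SE 0.12) for Ndufv1 and 0.06 (SE 0.13) for Ndufs1. The deposited status of Ndufs1 was a failed estimate in at least 1 library, as for Cox7a2l.

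Accessory subunits of complex I covered a wide range of levels. Ndufa3 had the highest mean FPKM of the complex, with 235, 187 and 293 in wild type and 243, 249 and 285 in knockout. Ndufa1, an X-linked accessory subunit of the membrane arm, had the highest fold change of the complex. Its level was 49.0, 25.04 and 51.7 CPM in wild type and 57.3, 53.5 and 54.2 CPM in knockout, so the groups did not overlap, but wild-type replicate 2 lay far below the other 5 libraries. The log2 fold change was 0.39 with an interval of -0.31 to 1.10, and edgeR gave an adjusted p of 0.763. Ndufb6, with the smallest p of the complex, had 48.0, 37.9 and 42.4 CPM in wild type and 47.9, 49.3 and 58.4 CPM in knockout (log2 fold change 0.28, interval -0.10 to 0.66, edgeR adjusted p = 0.763). Ndufa11 had 48.0, 29.2 and 39.9 CPM in wild type and 46.0, 44.4 and 54.7 CPM in knockout. Its groups overlapped as well, with wild-type replicate 2 again lowest.

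Complex II, succinate dehydrogenase, is the complex with no mitochondrially encoded subunit, and its 4 subunits lay close together per length. Sdha, the flavoprotein, had an FPKM of 68.1, 69.6 and 88.3 in wild type and 68.8, 70.5 and 83.1 in knockout. Sdhb, the iron-sulfur subunit, had 80.5, 75.7 and 92.6 in wild type and 76.1, 81.4 and 90.1 in knockout. The membrane anchors had mean FPKM values of 104 (Sdhc) and 95.3 (Sdhd). The mean FPKM of the 4 thus spanned 74.7 to 104. In each of the 4 the genotypes overlapped, and the lowest p in the complex was 0.588 (edgeR, adjusted 0.866), for Sdhaf2. The assembly factors were lower, with a mean FPKM of 14.7 for Sdhaf2, which helps to attach the flavin to Sdha, and 9.62 for Sdhaf1, which assists the iron-sulfur subunit. The median log2 fold change of the 6 loci was -0.0040 with TMM scaling, 0.0014 with RLE scaling and 0.028 with upper quartile scaling, so it has no stable direction.

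Complex III, the cytochrome bc1 complex, had 7 of 9 loci above 0 and a median log2 fold change of 0.04. Uqcr10, a small subunit, led with an FPKM of 209, 166 and 228 in wild type and 206, 235 and 227 in knockout. The core proteins Uqcrc1 and Uqcrc2 had mean FPKM values of 91.3 and 75.8, and Uqcrfs1, the Rieske iron-sulfur protein, 49.2. Uqcrc2 had the smallest p of the complex (edgeR adjusted p = 0.828), with 126, 144 and 147 CPM in wild type and 125, 128 and 138 CPM in knockout, and its groups overlapped. The symbol Uqcrq named 2 loci. The minus-strand locus had a mean FPKM of 183, and the plus-strand locus (chr11:53427186-53430837) 2.23. No source used here says if fragments were counted by strand, so the plus-strand value may hold reads of the other strand.

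Complex IV, cytochrome c oxidase, held both the highest subunits of the chain proper and the most variable loci. Cox6b1 had an FPKM of 334, 222 and 360.3 in wild type and 326, 345 and 387 in knockout. Cox8a had 289, 213 and 342 in wild type and 323, 329.7 and 328 in knockout. Cox6a1 had 299.5, 229.9 and 295 in wild type and 279.6, 319 and 304 in knockout. In all 3 small subunits wild-type replicate 2 was the lowest library, and the other wild-type libraries overlapped with the knockout for Cox6b1, Cox8a and Cox6a1.

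Cox7b, an X-linked subunit, had the smallest p of all members. It had 81.4, 73.6 and 79.6 CPM in wild type and 92.6, 86.1 and 93.2 CPM in knockout, a mean of 78.2 ± 4.08 against 90.6 ± 3.93 CPM (SD, n = 3 each). On that scale the knockout libraries all lay above the wild type. The log2 fold change was 0.21 with an interval of -0.07 to 0.50. On the deposited FPKM scale the same gene overlapped, with 91.7, 100.2 and 127 in wild type and 108, 100.1 and 166 in knockout. In the authors' deposited table its p-value was 0.968. Cox7a2, the widely expressed Cox7a isoform, had 94.6, 75.0 and 102 CPM in wild type and 112, 99.8 and 109 CPM in knockout (log2 fold change 0.24, interval -0.15 to 0.62, edgeR adjusted p = 0.763). Cox7a2l is a gene studied for a role in joining complexes III and IV into supercomplexes, which was not examined in these cells. It had 88.9, 68.0 and 115 CPM in wild type and 74.2, 83.0 and 95.1 CPM in knockout, with groups that overlapped.

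The minor isoforms of complex IV were low or not detected. Cox8b, the heart and muscle isoform, and Cox8c, a testis isoform, had 0 fragments in every library, which allows up to 0.141 CPM each in the shallowest, while Cox8a carried the whole Cox8 signal. Cox7b2 had at most 2 fragments in a library. Ndufa4, counted here with complex IV, made up most of its pair with Ndufa4l2, a paralogue known for its induction by hypoxia-inducible factor: the share of Ndufa4l2 in the summed FPKM of both was 4.14%, 1.32% and 14.8% in wild type and 8.93%, 4.46% and 0.994% in knockout. The muscle isoform Cox7a1 made up 3.96%, 1.83% and 6.08% of its pair with Cox7a2 in wild type and 2.70%, 3.38% and 2.29% in knockout. The testis isoform Cox6b2 made up 3.05%, 1.58% and 1.34% of its pair with Cox6b1 in wild type and 1.16%, 2.04% and 5.07% in knockout. For these 3 pairs the genotypes overlapped, and the exact two-sided permutation test over libraries gave p = 0.7, p = 0.5 and p = 0.7 in that order. With 3 libraries against 3 the smallest p it can give is 0.1.

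Cox6a2, the heart and muscle isoform of Cox6a, was the pair member whose genotypes did not overlap. It had 6, 62 and 34 fragments in wild-type replicates 1 to 3 and 0, 2 and 2 in the knockout libraries. The 0 in knockout replicate 1, the shallowest library, allows up to 0.141 CPM, above the 0.0849 CPM of wild-type replicate 1. Those 2 libraries are thus apart only as counted. Its share of the summed FPKM with Cox6a1 was 0.0428%, 0.984% and 0.384% in wild type and 0%, 0.0266% and 0.0235% in knockout. The exact permutation test gave p = 0.1, the smallest possible here, and 0.4 after adjustment over the 4 pairs tested. The locus was too low for the edgeR fit, DESeq2 gave an adjusted p of 0.207, and the authors' deposited table lists a p-value of 0.429. Summed muscle markers were 32.3, 108 and 84.9 CPM in wild type and 25.9, 19.7 and 31.4 CPM in knockout over the 11 markers with a locus, of 12 listed. Most of each sum was Des, the intermediate filament desmin, with 23.7, 98.2 and 82.4 CPM in wild type and 18.8, 11.8 and 26.4 CPM in knockout. Other muscle markers were divided. The troponins Tnnt2 and Tnnc1 were lowest in wild-type replicate 3, at 0.186 and 1.55 CPM. Tnnt3, another troponin, was highest in wild-type replicate 2, as was Des, with 0.255, 0.867 and 0.393 CPM in wild type. In knockout Tnnt3 had 0.141, 0.054 and 0.067 CPM, below every wild-type library (edgeR adjusted p = 0.763), as in 5.44% of all tested loci. Tnni1, Actc1 and Myh3 were highest in wild-type replicate 2 too. The part of muscle cells in the Cox6a2 values was not tested.

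Of all tested members, 3 of these isoforms had the widest spread between libraries of a genotype. Cox4i2, the lung isoform of the Cox4 subunit, had 397, 9 and 134 fragments in wild type and 120, 169 and 59 in knockout, a ratio of 26.7 between the highest and the lowest library in CPM. Ndufa4l2 had 10.9, 6.77 and 30.8 CPM in wild type and 19.5, 9.65 and 3.31 CPM in knockout, a ratio of 9.31. Cox6b2 had 5.49, 1.78 and 2.44 CPM in wild type and 1.93, 3.57 and 10.1 CPM in knockout, a ratio of 5.70. High and low libraries occurred in both genotypes, and they were not the same libraries from gene to gene: Cox4i2 was lowest in wild-type replicate 2, Ndufa4l2 highest in wild-type replicate 3 and Cox6b2 highest in knockout replicate 3. The log2 fold changes had correspondingly wide intervals, from -2.24 to 3.06 for Cox4i2, -2.55 to 1.39 for Ndufa4l2 and -1.11 to 2.49 for Cox6b2.

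**Figure D2:**
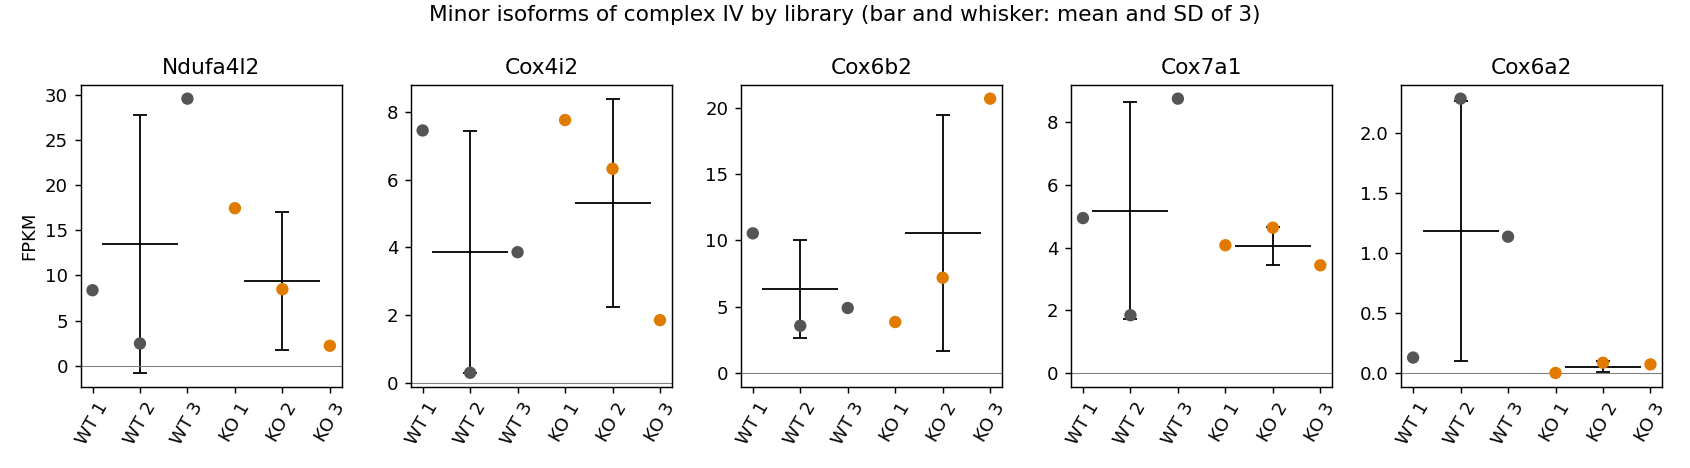
Each panel shows the FPKM of a minor complex IV isoform in the 6 libraries, with wild type in grey and knockout in orange, and the mean and SD of 3 libraries as a bar with whiskers. Ndufa4l2, Cox4i2, Cox6b2 and Cox7a1 overlap between genotypes, and Cox6a2 lies between 0.128 and 2.29 in wild type and between 0 and 0.0851 in knockout. The value of 0 is knockout replicate 1, where 0 fragments allow up to 0.141 CPM.

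Complex V, the ATP synthase, held the most abundant member RNA. Atp5b, the catalytic beta subunit, had an FPKM of 544, 529 and 474 in wild type and 546, 595 and 604 in knockout. The groups were 516 ± 36.5 and 582 ± 31.1 (SD, n = 3 each), and on the FPKM scale all knockout libraries lay above the wild type, whereas in CPM they overlapped (1179, 1056 and 962 against 1108, 1204 and 1132). The log2 fold change from counts was 0.11 with an interval of -0.30 to 0.52. Its partner Atp5a1, the alpha subunit, had an FPKM of 214, 256 and 249.5 in wild type and 223, 221 and 251 in knockout. Atp5d, the delta subunit of the central stalk, had the smallest p of the complex, with 167, 132 and 155 CPM in wild type and 167, 177 and 176 CPM in knockout (edgeR adjusted p = 0.763). Over the 16 tested loci the median log2 fold change was -0.06, with 7 above 0 and 9 below.

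The membrane ring of ATP synthase is built from subunit c, which 3 genes encode with different import signals and the same mature protein. Atp5g3 had the highest level of the 3. Its FPKM was 279, 267 and 285 in wild type and 259, 255 and 307 in knockout. Atp5g1 had 24.1, 27.3 and 21.4 in wild type and 19.0, 24.0 and 28.1 in knockout, and Atp5g2 had 0 to 10 fragments in a library. The Atp5g2 locus in the files lies on the minus strand of chromosome 15, from 102663014 to 102667749. Its upper end is short of the RefSeq promoter window at 102670998 to 102671297, so the annotated gene start is not reached. Its lower end falls at the stop codon, so the locus holds no sequence after the coding part. The part of these limits in the low count of Atp5g2 was not tested. The last 60 coding bases before the stop codon show how the genes differ in sequence. They encode the same amino acids in all 3 genes yet differ among them at 18 positions, which are in capitals below (GENCODE M21 transcripts, mm10).

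Atp5g1 (chr11:96073107-96073166, minus strand): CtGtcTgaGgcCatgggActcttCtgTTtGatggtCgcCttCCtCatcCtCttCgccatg

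Atp5g2 (chr15:102663017-102663076, minus strand): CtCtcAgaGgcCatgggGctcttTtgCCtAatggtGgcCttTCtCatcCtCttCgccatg

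Atp5g3 (chr2:73908596-73908655, minus strand): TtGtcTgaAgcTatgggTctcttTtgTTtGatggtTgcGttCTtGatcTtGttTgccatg

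Atp5g1 and Atp5g2 differ at 9 of these positions, Atp5g1 and Atp5g3 at 12, and Atp5g2 and Atp5g3 at 17.

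Some members share stretches of sequence with genes elsewhere in the genome. For each of 85 members matched to a coding transcript, the share of 50-base stretches also present in a transcript of another, non-overlapping gene was counted. It was 0 for 49 members, and 9 members (10.6%) reached 25% or more, beside 10.0% of 21859 coding genes. The 9 were Atp5l, Atp5h, Uqcrb, Ndufb4, Ndufs3, Ndufs5, Cox7c, Ndufa12 and Cox5b, and the limit of 25% was chosen after the values were seen. Their mean FPKM had a median of 26.7 and a range of 2.11 to 41.4, beside a median of 77.1 for the 70 other tested and matched members. Reads that fit several places may be split between copies or left out, and no source used here says how they were counted, so the levels of these 9 are uncertain.

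Atp5l, subunit g of the ATP synthase membrane part, had the highest shared portion, 68.5%, with 13 other genes of which 12 are pseudogenes. Its FPKM was 11.1, 9.02 and 5.44 in wild type and 0.707, 0.604 and 15.8 in knockout, so the highest and the lowest library were both knockout. In fragments it had 476, 257 and 191 in wild type and 46, 68 and 395 in knockout. The log2 fold change was -0.39 with an interval of -2.02 to 1.25. Without knockout replicate 3 it was -1.48 (edgeR adjusted p = 0.959).

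**Figure D3:**
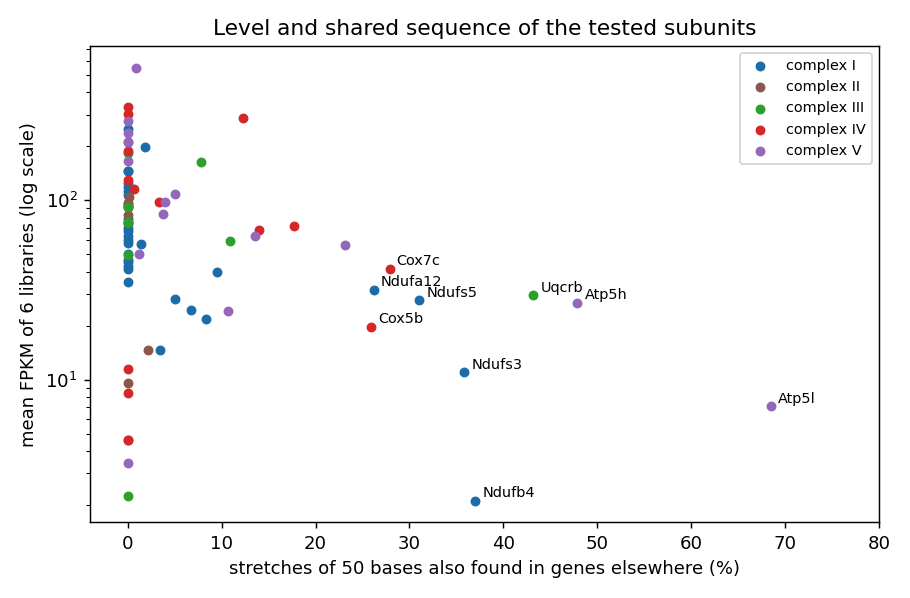
Each point is a tested member, with the percent of its 50-base stretches found in genes elsewhere on the x axis and its mean FPKM of 6 libraries on a log y axis, coloured by complex. The 9 named members at 25% or more lie between 2.11 and 41.4 FPKM.

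Apart from such loci, the subunit RNAs were held within a narrow range. On the log2(CPM + 0.5) scale, the 6 libraries of 73 of 81 members (90.1%) lay within a 2-fold range, beside 57.0% of all tested loci. Members were abundant: 57 of 81 reached a mean log2 CPM of 5, as did 6486 of 15673 loci. Of those 57, 53 stayed within the 2-fold range, beside 66.0% of the 6486 loci. The median SD between libraries of a genotype was 0.18 log2 units over members and 0.31 over all tested loci, and 0.16 and 0.27 for those that reached a mean log2 CPM of 5. The members past that range included Ndufa4l2, Ndufa6, Ndufv3, Cox4i2, Cox6b2, Atp5l and Ndufa1.

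**Figure D4:**
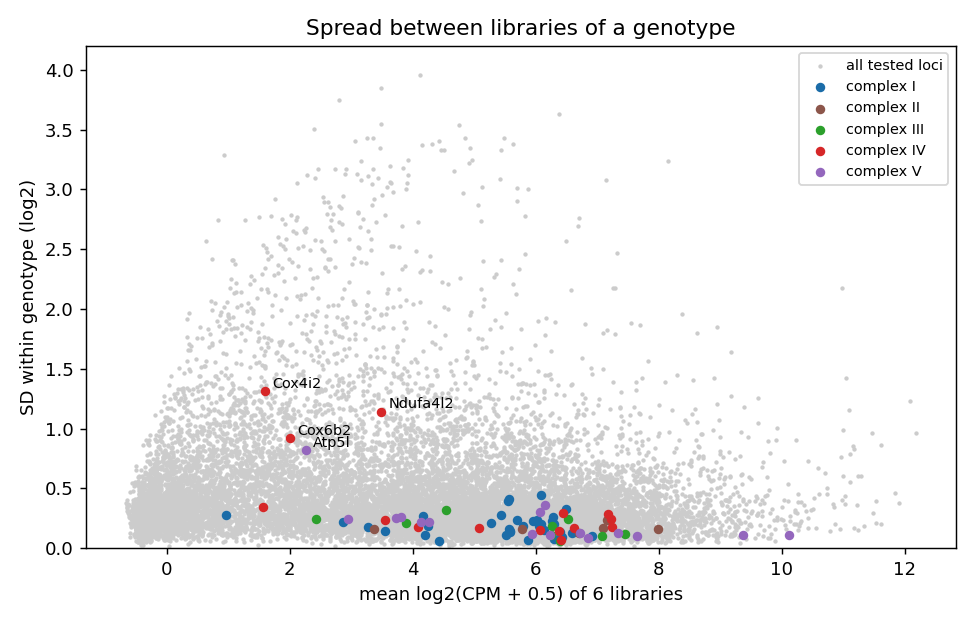
The x axis is the mean log2(CPM + 0.5) of the 6 libraries and the y axis the SD between libraries of a genotype in log2 units, with all 15673 tested loci in grey and the members coloured by complex. Most members lie low in the cloud, and Cox4i2, Ndufa4l2, Cox6b2 and Atp5l are named because they stand above an SD of 0.5.

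What variation there was ran through most members together and followed the library. Wild-type replicate 2 was the lowest of the 6 libraries in 53 of 81 members, beside 28.6% of all tested loci. Wild-type replicate 3 was highest in 36 members and knockout replicate 3 in 29, beside 28.9% and 15.0% of all loci. The median deviation of wild-type replicate 2 from the mean of the 6 libraries was -0.23 log2 units over members and -0.014 over all loci. By complex it was -0.24 in I, -0.17 in II, -0.14 in III, -0.37 in IV and -0.07 in V. Members with a transcript under 1000 bases deviated by -0.29 (47 loci) and longer ones by -0.13 (26 loci), while all loci of the same 2 classes deviated by -0.08 and -0.0027. Short loci and members were thus both low in that library, and the part of transcript length in the member values was not tested. Wild-type replicate 2 also had the highest sum of the 10 fibroblast markers, 34350 CPM against 5874 to 12740 in the other 5 libraries. Most of that sum was collagen RNA, with 11990 CPM of Col1a1, 10000 of Col1a2, 3324 of Col3a1 and 3264 of Col5a1, each highest in that library. Vim and Pdgfrb were highest there too, Pdgfra, Thy1 and Lum were not, and Dcn was lowest there, at 216 CPM. The part of these genes in the member values was not tested.

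**Figure D5:**
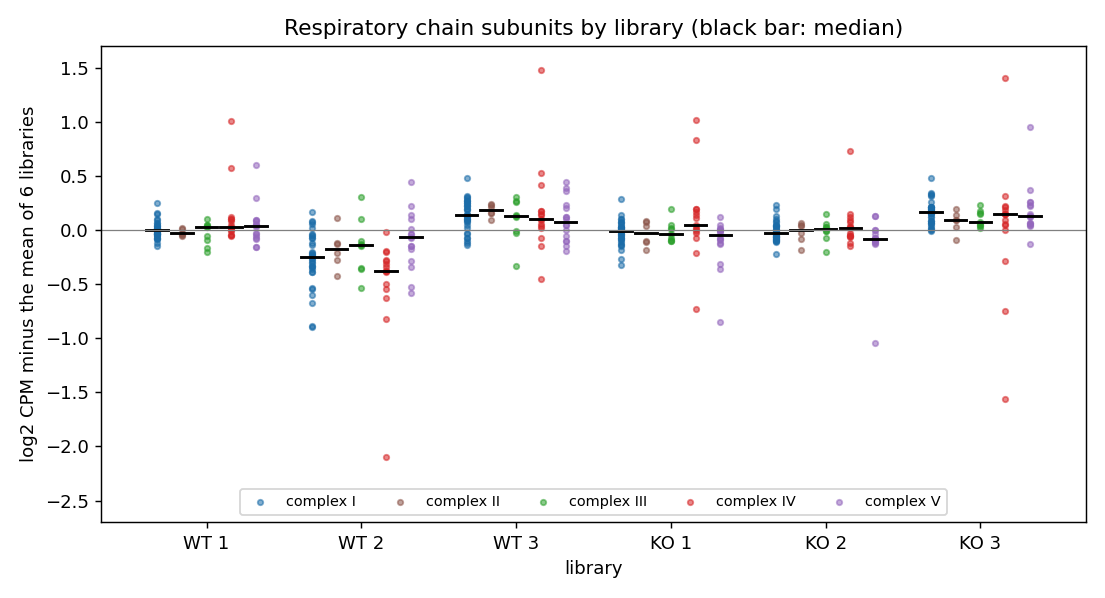
Each point is the log2 CPM of a tested member in a library minus its mean over the 6 libraries, coloured by complex, with black bars at the median of each complex. The 5 medians of wild-type replicate 2 all lie below 0, from -0.07 to -0.37, and those of wild-type replicate 3 and knockout replicate 3 all lie above 0.

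The promoters of many subunit genes carry short motifs known from nuclear genes of mitochondrial proteins. The RefSeq table (GRCm38.p6, 250 bases before to 50 after each start) held 71 of the member genes. The NRF1 motif, searched on both strands as GCGCA, any base, GCGC, was present in 17 of the 71 (23.9%), beside 5.19% of 27025 genes and 7.17% of 17492 coding genes. The YY1 motif AAGATGGCG was present in 8 (11.3%), beside 1.64% and 2.14%. The ETS motif CCGGAAGT, of the family that includes GABP, was present in 5 (7.04%), beside 4.31% and 5.69%. A match of one motif may overlap a match of another, and 28 members (39.4%) held any of the 3, beside 10.3% of all genes and 13.9% of coding genes. The matches are descriptions of the sequence, not evidence of binding. The 17 genes with an NRF1 match were Ndufa5, Ndufa6, Ndufa8, Ndufa11, Ndufb4, Ndufs5, Ndufs6, Sdha, Sdhd, Uqcrc1, Cox6a1, Atp5c1, Atp5g2, Atp5g3, Atp5h, Atp5k and Atp5o.

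These 3 stretches, which overlap no annotated exon, show the motif, in capitals, in a member of complexes I, II and IV whose genotypes overlapped. Each runs from an annotated exon to the locus as the files give it.

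Ndufa11 (GRCm38.p6, chr17:56717686-56717741, plus strand): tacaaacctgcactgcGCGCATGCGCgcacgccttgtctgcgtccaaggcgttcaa

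Sdha (GRCm38.p6, chr13:74350281-74350308, minus strand): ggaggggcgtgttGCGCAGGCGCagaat

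Cox6a1 (GRCm38.p6, chr5:115348982-115349129, minus strand): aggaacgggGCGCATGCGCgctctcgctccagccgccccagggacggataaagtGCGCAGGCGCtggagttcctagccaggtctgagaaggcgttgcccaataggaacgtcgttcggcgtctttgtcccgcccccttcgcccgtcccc

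The factor Nrf1 itself had 30.5, 38.2 and 29.3 CPM in wild type and 34.1, 37.1 and 29.7 CPM in knockout. Gabpa, the ETS-domain subunit of GABP, had 84.3, 108 and 94.0 CPM in wild type and 88.6, 83.6 and 81.4 CPM in knockout. Both overlapped between genotypes.

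Related mitochondrial gene groups gave no call either. Of 6 subunits or partners that the naming rule does not reach, among them Cyc1 and cytochrome c (Cycs), edgeR called 0, and the median log2 fold change was 0.05. Assembly factors had 34 tested genes, 0 called, 17 above 0 and 17 below, and a median of 0.0038. The citric acid cycle had 21 tested genes, 0 called and a median of -0.03. None of these 3 groups had a gene at an unadjusted p under 0.05, and DESeq2 called 0 genes in each mitochondrial group described here. Mitochondrial translation and import had 38 tested genes, 0 called and a median of -0.05, with 1 gene at an unadjusted p under 0.05, the locus that joins Tomm40 with Apoe. Regulators of mitochondrial biogenesis had 19 tested genes, 0 called and a median of -0.16, with 1 gene at an unadjusted p under 0.05. That gene was Ppargc1a, a coactivator of mitochondrial biogenesis, with 1.18, 0.258 and 0.476 CPM in wild type and 2.07, 1.797 and 1.84 CPM in knockout. Its groups did not overlap, as in 5.18% of all tested loci with the knockout higher. The log2 fold change was 1.56 (SE 0.59), and edgeR gave an adjusted p of 0.763. Of the 19 regulators, 2 did not overlap with the knockout higher, the other being Esrra, in a locus joined with Prdx5. With the knockout lower it was 1, Tfb1m. The regulators had 8 genes above 0 and 11 below. Hif1a with targets of hypoxia-inducible factor made up 10 tested genes, 0 called, all 10 above 0 and a median of 0.59, with 1 gene, Hif1a itself, at an unadjusted p under 0.05. Their summed level was 3194, 1505 and 1771 CPM in wild type and 4490, 3462 and 2927 CPM in knockout, and the ranges overlapped.

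The authors' deposited table held 57 of the members and tested 51 of them. Its lowest member p-value was 0.429, for Cox6a2, and its lowest member q-value was 1.0.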

How the data were processed

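RNA was measured in 6 libraries, 3 of each genotype. Genome build mm10 and the tools Cuffdiff 2.0.1, TopHat2 2.0.6 and CASAVA 1.8.2 are named, without roles, per the submitters' processing notes. Each locus carries an FPKM, a status and an estimated fragment count, per the file headers. The deposited estimated counts were not whole for 24.2% of values above 0 and were rounded to whole numbers. FPKM values were used as deposited by the authors, who normalized fragments for length and depth. For each gene, the deposited comparison table of the authors holds genotype means of FPKM, a log2 fold change, a p-value and a q-value.

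Loci without a gene name (2667, with 0.507% to 0.555% of fragments) and 16 named loci marked HIDATA, the mark for too many fragments to quantify, were left out, leaving 36812; loci marked FAIL were kept. The test was edgeR's (4.0.16, R 4.3.3) robust quasi-likelihood fit without covariates, after filterByExpr and TMM, adjusted by Benjamini-Hochberg over the 15673 tested loci, threshold 0.05; member p-values were read from this fit and never adjusted over members alone. The spread common to all loci was a biological coefficient of variation of 0.467. CPM used TMM effective library sizes, and log2 CPM had 0.5 added. Depths of 21766332 to 71107130 fragments and 3 libraries a genotype set the precision; intervals are at the 95% level. A count of 0 was read as allowing up to 3 counts, which covers counting error only. Isoform shares were compared by exact permutation over libraries, adjusted over the 4 pairs; the planned pair with Cox4i1 was not run.

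Other settings were upper quartile or RLE scaling, a filter of 1 CPM in 3 libraries or none, DESeq2 1.42.0, limma (3.58.1) as voom or on log2 FPKM with 1 or 0.1 added, leaving out FAIL loci, each library, or the 3 libraries richest in macrophage markers, Ndufa4 and Ndufa4l2 moved to complex I, and shares of CPM. Shared 50-base stretches came from GENCODE M21 transcripts, promoters from RefSeq.

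Named members were, in each complex, those with the smallest p, the highest and lowest fold change and the highest FPKM, the isoform pairs, and Cox7a2l, Cox8a to Cox8c and Atp5g1 to Atp5g3; in other lists the genes with the smallest p. Ndufv1, Ndufs1, Sdha, Sdhb, Sdhd, Uqcrc1, Uqcrfs1, Atp5a1, the minus-strand Uqcrq locus, Nrf1 and Gabpa were added for their roles. Of the members the rule names, 1 is not reported here; it stays in the counts and medians over members and is not marked in the figures. The members and lists were chosen with earlier results of these data known. Summed markers of fat were 13.5 to 98.2 CPM and of endothelium 6.70 to 23.6 CPM. The fat sum was mostly Fabp4 and Pparg, at 78.3 and 19.3 CPM in wild-type replicate 3, where it was highest. Ucp1, Cidea, Adipoq, Plin1, Lep and Cfd did not exceed 0.248 CPM in any library.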

Additional observations from a re-analysis of the deposited data

How the results depend on the processing

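Under each of the 16 alternative fits of the whole table, 0 members were called, and at most 0 members with the knockout higher and 2 with it lower had an unadjusted p under 0.05. At that unadjusted limit the main fit had 1.6% of all loci with the knockout higher and 2.27% with it lower. The shares over all loci in the alternative fits are not given here, so the 2 members are not read as a result. By adjusted p over all loci, DESeq2 called 61 and limma on log2(FPKM + 0.1) called 1, while edgeR, limma-voom and limma on log2(FPKM + 1) called 0. The complex medians moved by less than the SD between libraries under every alternative. Leaving out a replicate gave member medians of -0.035 to 0.15, with -0.032 to 0.16 for complex I, -0.058 to 0.11 for II, -0.0093 to 0.13 for III, -0.00098 to 0.22 for IV and -0.080 to 0.036 for V. Isoform share differences in percentage points ranged without a replicate from -4.68 to 2.06 for Ndufa4l2 (2.06 without wild-type replicate 3), -0.39 to 1.56 for Cox6b2 (-0.39 without knockout replicate 3), -2.24 to -0.11 for Cox7a1 and -0.67 to -0.20 for Cox6a2.

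Of 574 pairs of an alternative and 1 of 36 tested members (the named ones and those added for their roles), 0 passed the threshold (lowest adjusted p 0.298) and 44 changed sign, all in members whose difference was not called. Without the 3 libraries rich in macrophage markers the log2 fold changes were -0.014 for Atp5b, 0.040 for Atp5g1, -0.95 for Cox4i2, -0.026 for Cox6a1, 0.0022 for Cox7a2l, -0.020 for Ndufa4, 0.058 for Sdhaf1, 0.080 for Uqcrc2, 0.066 for Atp5a1, 0.090 for Sdha, 0.011 for Sdhb and -0.023 for Uqcrc1. Ndufv1 stood at 0.0050 with upper quartile scaling and at 0.035 in limma on log2 FPKM with 0.1 or 1 added. Leaving out a replicate at a time, they ran from the value without wild-type replicate 2 to the highest as follows: -0.13 to 1.36 for Cox4i2, -0.0079 to 0.20 for Cox6a1, -0.0027 to 0.29 for Cox6b1, -0.045 to 0.24 for Ndufa3, -0.0058 to 0.20 for Sdhaf2, -0.054 to 0.25 for Sdhc, -0.055 to 0.15 for Sdhd, -0.0093 to 0.13 for Uqcrfs1 and -0.0056 to 0.20 for Uqcr10. They ran from the lowest to the value without wild-type replicate 3 as follows: -0.39 to 0.13 for Cox7a1, -0.26 to 0.0998 for Cox7a2l, -1.32 to 0.29 for Ndufa4l2, -0.11 to 0.080 for Sdha and -0.090 to 0.038 for Sdhb. The other ranges were -0.25 to 0.026 for Atp5g1, -0.14 to 0.0032 for Atp5g3, -0.24 to 1.32 for Cox6b2, -0.044 to 0.12 for Ndufa4, -0.014 to 0.11 for Ndufs1, -0.059 to 0.022 for Ndufv1 and -0.023 to 0.11 for Uqcrc1. Apart from the fewer libraries in these fits, the cause was not tested. No paired analysis was possible because the labels give no replicate numbers that the genotypes share. With 3 libraries a genotype, the intervals of 9 members allow differences beyond 1 log2 unit.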
